A study of Homo sapiens with 30 samples.

Results

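HCT116 cells carrying HaloTag on both copies of CTCF were depleted of CTCF protein with HaloPROTAC3, and their poly(A) RNA was compared with that of the same line without HaloPROTAC3, both in DMSO. HCT116 is a colorectal carcinoma line. HaloPROTAC3 is a small molecule that brings a HaloTag fusion protein to the VHL ubiquitin ligase, so that the protein is degraded by the proteasome. The samples were chosen by their titles and make up 6 of the 30 in the series. They are 3 replicates of the HaloTag-CTCF line given HaloPROTAC3 before and during 1 day in 0.1% DMSO, and 3 replicates of the same line given DMSO without HaloPROTAC3. Cells of both groups carry the tag. The tagged line was a knock-in clone, so both groups share 1 genetic background. HaloPROTAC3 was not given to untagged cells here, so effects of the compound and of CTCF loss cannot be told apart. The study describes the replicates as separate cultures. Another 6 libraries of the same line, with and without HaloPROTAC3 in the DNMT1 inhibitor DNMT1i (10 µM, 1 day), entered the model fit and served as a further comparison.

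CTCF is a zinc finger protein that binds DNA and halts loop extrusion by cohesin, the ring-shaped complex of SMC1A, SMC3, RAD21 and a STAG subunit. It anchors chromatin loops and limits contacts between enhancers and promoters of neighbouring domains. It also binds close to the start sites of many genes. Its sites share a core with a run of G bases that is read in 1 orientation.

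The HaloPROTAC3 libraries held 6651559 to 9407430 counts assigned to genes, against 4659352 to 5717206 in the controls, so depth differed between the groups without overlap. Levels are given as CPM, the counts of a gene relative to the library total after scaling for library composition. The 10 colon epithelial markers, with VIL1 and CDX1 at 0, summed to 3600 to 3940 CPM with HaloPROTAC3 and 3250 to 3990 CPM without it. The 7 blood cell markers, with PTPRC, HBG1 and CD3E among those at 0, summed to 0.767 to 2.03 CPM against 2.51 to 2.8 CPM, and the 4 neuronal markers, with STMN2 at 0, to 0.56 to 2.3 CPM against 0.6 to 1.36 CPM. The 6 fibroblast markers, with LUM and DCN at 0, summed to 16.7 to 19.4 CPM with HaloPROTAC3 and 12.6 to 15.3 CPM without. In bulk RNA, a change in the number of cells of a type and a change in RNA per cell cannot be told apart.

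HaloPROTAC3 raised 592 genes and lowered 449 of the 12690 tested, which is 4.67% and 3.54% of them (edgeR quasi-likelihood test, called at a log2 fold change above 0.5 or below -0.5 where the adjusted p was under 0.05). The median log2 fold change was 0.73 among the genes called higher and -0.80 among those called lower, against -0.0046 over all genes tested. At this limit 172 genes were more than 2-fold higher and 152 more than 2-fold lower. Without a limit on fold change 1276 genes rose and 924 fell, or 10.1% and 7.28% of those tested, the shares beside which the counts of each gene list stand, and 29.8% of genes had an unadjusted p under 0.05. Genes called higher made up 56.9% of all calls. With library totals in place of scaling factors the split turned, with 455 genes higher and 611 lower (42.7% higher). Below, "rose" and "fell" mean an adjusted p below 0.05 in this test. The median standard error of a log2 fold change was 0.12.

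The RNA of CTCF itself rose while its protein was the target. CTCF (chromosome 16, 67562467 to 67639177, GRCh38) had 215.3, 216.3 and 214.2 CPM with HaloPROTAC3, against 132.3, 126.0 and 131.1 CPM without it. The groups did not overlap, and the log2 fold change was 0.73 (SE 0.07, edgeR adjusted p = 1.77e-09). Because the compound acts on the protein, the RNA does not check the labels. STAG1, a cohesin subunit that is exchanged with STAG2, had 212.6, 240.2 and 222.7 CPM against 110.9, 100.7 and 94.75 CPM. It rose by 1.14 on the log2 scale (SE 0.08, edgeR adjusted p = 9.22e-12). STAG2, its alternative, had 223.1 ± 8.28 CPM against 214.7 ± 11.3 CPM (SD, n = 3 each), a log2 fold change of 0.06 that did not pass (edgeR adjusted p = 0.655).

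The cohesin core and its loader and release factors showed no call. Log2 fold changes were 0.17 for SMC1A, -0.08 for SMC3, -0.04 for RAD21, 0.19 for the loader NIPBL and 0.09 for the release factor WAPL, with edgeR adjusted p of 0.0987, 0.564, 0.76, 0.183 and 0.447. CDCA5, which protects cohesin from release in dividing cells, fell to 65.9 ± 2.79 CPM with HaloPROTAC3, against 84.2 ± 9.43 CPM without (SD, n = 3 each; log2 fold change -0.36, edgeR adjusted p = 0.00393). Over the list of 21 CTCF, cohesin and loop factor genes 2 rose and 2 fell, and the median log2 fold change was 0.09. Over all genes tested, 10.1% rose and 7.28% fell. Besides CDCA5, the gene of this list that fell was the cohesin acetyltransferase gene ESCO2. ESCO2 did not pass without low-count filtering, after thinning, or without any 1 of 5 of the 6 libraries (adjusted p 0.0505 to 0.0949), the exception being control replicate 3. CTCFL, the germline paralog of CTCF, had 1 count over the HaloPROTAC3 libraries and 0 over the controls, which is below the 3 counts taken as the floor.

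None of the 10 genes of the VHL ligase list passed in either direction, and all 10 had a log2 fold change between -0.40 and -0.03. VHL had 54.1 ± 3.08 CPM with HaloPROTAC3 and 62.3 ± 1.4 CPM without (SD, n = 3 each; log2 fold change -0.20, edgeR adjusted p = 0.115). MYC, an oncogene near many distal enhancers, had 470.0 ± 19 against 496.1 ± 10.2 CPM, and its log2 fold change of -0.08 did not pass (edgeR adjusted p = 0.475). DNMT1, the maintenance DNA methyltransferase, had 407.7 ± 8.52 against 382.4 ± 13.5 CPM and did not pass (log2 fold change 0.09, edgeR adjusted p = 0.392).

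**Figure D1:**
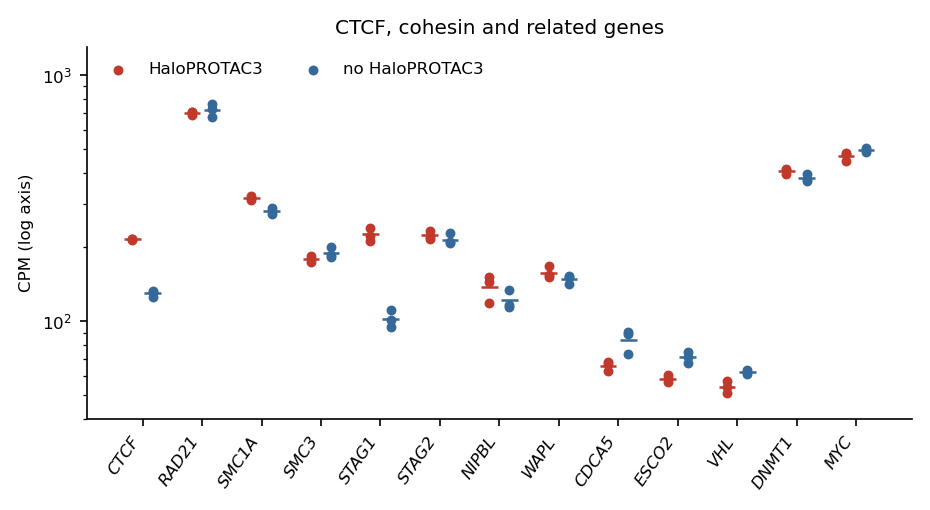
CPM on a log axis for CTCF, cohesin and related genes in the 6 DMSO libraries, with 1 point per library, HaloPROTAC3 on the left of each pair and a bar at the mean. CTCF and STAG1 stand apart upward with HaloPROTAC3, while RAD21, SMC3 and STAG2 overlap.

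Among genes with a mean log2 CPM of at least 1 over the 6 libraries and groups apart, from which the largest changes are named, the largest rises were in genes close to silent in the controls. SYCE3 (chromosome 22, 50551112 to 50562919), a component of the meiotic synaptonemal complex, had 7.64, 8.38 and 8.93 CPM with HaloPROTAC3, against 0.42, 0.17 and 0.20 CPM without. These come from 204 counts over the HaloPROTAC3 libraries and 4 over the controls. SYCE3 rose by 4.91 on the log2 scale (SE 0.40, edgeR adjusted p = 9.88e-11). CCDC80, a secreted matrix protein, had 7.30, 8.81 and 9.85 CPM against 0.63, 0.17 and 0.20 CPM, from 211 and 5 counts, and rose by 4.66 (SE 0.42, edgeR adjusted p = 5.28e-10). All 3 treated libraries lay above all 3 controls for both genes.

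Both genes of a shared collagen promoter rose. COL4A3 and COL4A4 encode chains of basement membrane collagen and start 171 bases apart on opposite strands of chromosome 2, at 227164624 and 227164453. COL4A4 had 38.7, 42.6 and 42.3 CPM with HaloPROTAC3, against 7.98, 5.13 and 8.63 CPM without. COL4A3 had 11.01, 13.3 and 12.5 CPM against 1.68, 1.37 and 1.41 CPM. The log2 fold changes were 2.52 for COL4A4 and 3.04 for COL4A3 (SE 0.15 and 0.25, edgeR adjusted p = 3.81e-14 and 6.91e-11). The groups were apart for both genes.

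BEND6, which encodes a BEN domain protein, had 32.5, 30.5 and 30.8 CPM with HaloPROTAC3, against 4.83, 3.76 and 4.22 CPM without (log2 fold change 2.88, SE 0.15, edgeR adjusted p = 7.55e-15). DST, a cytoskeletal linker that starts 277 bases away on the opposite strand, also rose (log2 fold change 0.80, SE 0.11, edgeR adjusted p = 1.08e-06). PXN-AS1, a noncoding RNA at the paxillin gene, had 37.3, 33.7 and 38.2 CPM against 3.57, 4.96 and 3.81 CPM and rose by 3.12 (SE 0.16, edgeR adjusted p = 5.38e-15). PXN itself was called lower, with a log2 fold change of -0.60. The sources used here do not say whether counting used strand, so reads of PXN-AS1 and of PXN where they overlap cannot be told apart. The same holds for the other antisense genes named.

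Among genes of metabolism and transport, FADS2, a fatty acid desaturase, had 51.2, 40.4 and 41.2 CPM with HaloPROTAC3, against 10.5, 12.1 and 11.4 CPM without (log2 fold change 1.96, SE 0.13, edgeR adjusted p = 8.61e-13). MMAA, which acts in mitochondrial cobalamin metabolism, rose by 2.55, the urate transporter gene SLC2A9 by 2.57 and CYP4F3, a leukotriene hydroxylase, by 2.93. SEC24D, a coat protein of vesicles that leave the endoplasmic reticulum (ER), had 121.3 ± 6.55 against 38.8 ± 3.86 CPM (SD, n = 3 each) and rose by 1.65. ABCC2, an efflux transporter of organic anions, rose by 1.44. The remaining 3 of the 12 largest rises were the noncoding MRPS30-DT (3.08), MRO (2.89) and the pseudogene PRSS30P (2.53), for which reads could be shared with the parent gene family.

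Of the genes that fell, several lost nearly all their RNA. TMC7 (chromosome 16, 18983934 to 19063942), a transmembrane channel-like gene, had 0.79, 0.32 and 0.31 CPM with HaloPROTAC3, against 9.87, 7.18 and 9.03 CPM without. These are 12 and 134 counts, and the log2 fold change was -4.10 (SE 0.34, edgeR adjusted p = 1.43e-10). NKD2, a repressor of Wnt signalling, had 0.34, 1.07 and 0.77 CPM against 7.35, 13.8 and 11.8 CPM (log2 fold change -3.90, SE 0.33, edgeR adjusted p = 1.94e-10). CC2D2A, a protein of the ciliary transition zone, had 0.79, 1.07 and 1.08 CPM against 15.3, 13.0 and 14.7 CPM (log2 fold change -3.85, SE 0.26, edgeR adjusted p = 1.17e-12). For each gene the highest treated library was far below the lowest control.

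Falls at higher levels were as uniform. DENND4B, an exchange factor for Rab proteins, had 4.61, 6.88 and 4.62 CPM with HaloPROTAC3, against 35.1, 41.2 and 45.4 CPM without (log2 fold change -2.89, SE 0.15, edgeR adjusted p = 5.88e-15). BOLA3, needed for mitochondrial iron-sulfur proteins, had 6.63, 3.55 and 6.62 CPM against 38.6, 37.9 and 35.1 CPM (log2 fold change -2.76, SE 0.16, edgeR adjusted p = 3.01e-14). GSTO2, a glutathione transferase, had 11.7 ± 0.43 against 63.6 ± 3.55 CPM (SD, n = 3 each) and fell by 2.44 on the log2 scale. CYP24A1, the enzyme that inactivates vitamin D, had 105.9, 109.7 and 105.4 CPM against 275.1, 272.3 and 276.2 CPM (log2 fold change -1.36, SE 0.07, edgeR adjusted p = 5.38e-15).

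The rest of the named falls span several roles. Log2 fold changes were -1.84 for DMKN, a secreted epithelial protein, -1.94 for NSMCE4A, a subunit of the SMC5/SMC6 complex, and -1.5 for the RNA helicase gene DHX30. They were -2.84 for the splicing regulator MBNL3, -2.6 for the bile acid synthesis enzyme HSD3B7, -2.48 for the zinc finger gene ZBTB39 and -3.71 for SMCO4. The noncoding RNAs PRKCQ-AS1 and AGAP2-AS1 had log2 fold changes of -2.6 and -2.46. All 31 genes named for the largest change or smallest p kept their direction in the 16 alternative analyses of the DMSO comparison. All also stayed past the threshold in each. They were chosen by these values from the same libraries, so this is not separate support.

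**Figure D2:**
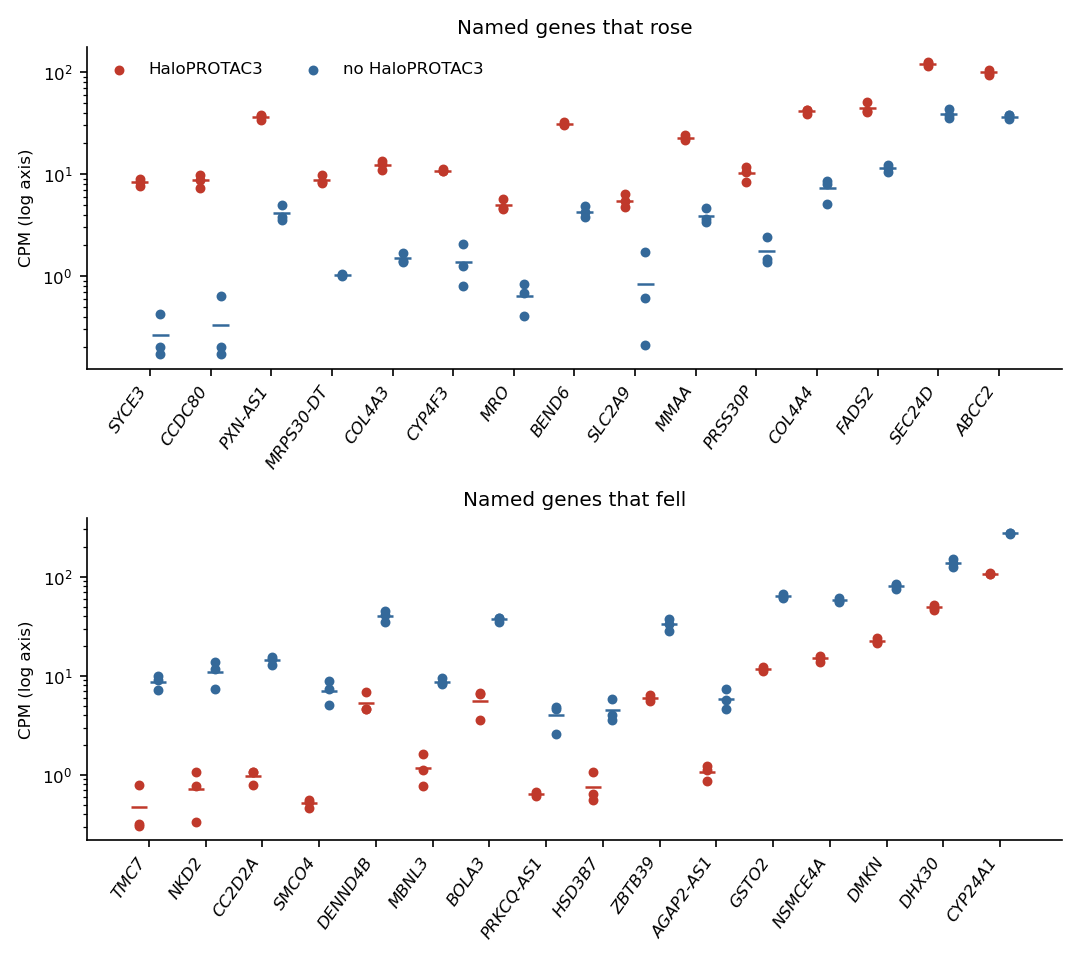
CPM on a log axis for the genes with the largest changes or the smallest p values, those that rose above and those that fell below, with 1 point per library, HaloPROTAC3 on the left of each pair and a bar at the mean. In every gene shown the 3 HaloPROTAC3 libraries lie on 1 side of the 3 controls.

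The core of the CTCF motif was more frequent in promoters of genes that fell. Promoters were RefSeq sequences (GRCh38.p14) from 250 bases before to 50 bases after the start, matched by symbol to 9690 genes tested. The letters searched, on both strands, were CC, 3 bases of any kind, AG, 2 bases of any kind and GGC. They stood in 89 of 341 promoters of genes called lower (26.1%), in 59 of 465 of genes called higher (12.7%), in 1464 of 9690 of all genes tested (15.1%) and in 10.6% of all 27305 promoters in the reference. The share was 33.0% among genes that fell by more than 1 on the log2 scale, 22.7% for falls of 0.5 to 1, 15.8% for smaller falls and 14.6% for genes that did not pass. It was 17.3%, 13.6% and 10.2% for rises of up to 0.5, 0.5 to 1 and over 1. The median GC content was 66.7% in promoters of genes called lower, 65.7% in those called higher and 65.7% over all tested.

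The orientation of the match also differed in share. Among promoters with the letters, 68.5% of those of genes called lower had them only in the direction of transcription and 25.8% only against it. These shares were 47.5% and 45.8% for genes called higher, and 53.2% and 41.9% over all tested. With the shorter letters AGNNGGCNC on either strand, which overlap the longer ones, the shares were 38.1% for genes called lower, 30.5% for genes called higher and 32.0% over all tested. In DNMT1i, the longer letters stood in 21.6% of promoters of genes called lower with HaloPROTAC3 and in 14.6% of those called higher. This is not separate support, as 266 of the 648 genes called lower in DNMT1i were also called lower in DMSO. The median GC content of these promoters was 69.3% for genes called lower and 65.0% for genes called higher in DNMT1i, against 65.7% over all tested. These are descriptions of letters in a window, and occupancy by CTCF was not measured in these files.

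**Figure D3:**
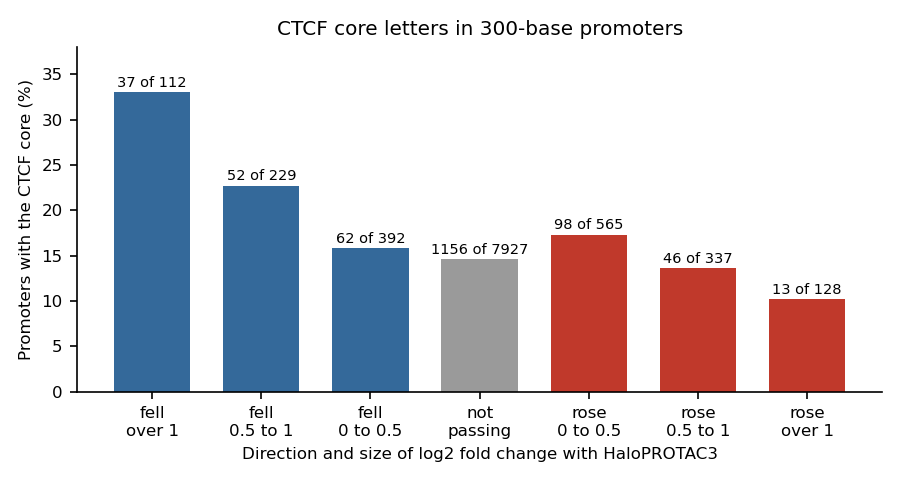
Percent of promoters with the CTCF core letters on either strand (y axis), by direction and size of the log2 fold change with HaloPROTAC3 in DMSO (x axis), with the number of promoters over each bar. The share is 33.0% for falls over 1 and 10.2% for rises over 1.

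Of the 12 largest falls, 11 had a promoter in the reference and 5 held the letters, while among the 12 largest rises 11 had a promoter and only that of MMAA held them. The windows below show the match in capitals with up to 12 bases on each side, 5′ to 3′ in the direction of the gene. They are given for the named genes that fell and held it, where a match in capitals beginning with GCC lies on the other strand.
TMC7, chr16:18984096-18984131, plus strand: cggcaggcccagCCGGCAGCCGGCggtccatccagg
NKD2, chr5:1008648-1008683, plus strand: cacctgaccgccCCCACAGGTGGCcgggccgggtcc
HSD3B7, chr16:30985103-30985138, plus strand: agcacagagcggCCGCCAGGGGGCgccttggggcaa
ZBTB39, chr12:57006625-57006660, minus strand: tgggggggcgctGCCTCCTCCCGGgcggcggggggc
ZBTB39, chr12:57006575-57006610, minus strand: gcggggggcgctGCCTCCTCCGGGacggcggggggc
AGAP2-AS1, chr12:57726199-57726234, plus strand: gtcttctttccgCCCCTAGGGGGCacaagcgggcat
NSMCE4A, chr10:121975228-121975263, minus strand: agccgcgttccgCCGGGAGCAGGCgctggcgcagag
DMKN, chr19:35510542-35510577, minus strand: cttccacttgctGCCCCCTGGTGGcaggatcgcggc
TGFB1, chr19:41354122-41354157, minus strand: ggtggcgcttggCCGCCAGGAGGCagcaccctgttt

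The letters were not limited to genes that fell. The promoter of STAG1, which rose, holds 2 matches in the direction of the gene, shown here because STAG1 moved against the genes above.
STAG1, chr3:136752395-136752430, minus strand: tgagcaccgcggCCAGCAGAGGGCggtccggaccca
STAG1, chr3:136752337-136752372, minus strand: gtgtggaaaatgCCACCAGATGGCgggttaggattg
CC2D2A, DENND4B, BOLA3 and GSTO2 fell strongly and had no match in their windows, and neither did CTCF.

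Genes with nearby starts on opposite strands were counted as pairs, whether they diverge or overlap at their starts. There were 1105 pairs of tested genes on opposite strands with starts within 1 kb, a grouping chosen after the data were seen. In 17 pairs both genes were called, 7 with both higher, 5 with both lower and 5 in opposite directions, and in 119 pairs 1 gene was called. Of the genes in such pairs 6.92% were called, against 8.20% of all genes tested. Besides COL4A4 with COL4A3 and DST with BEND6, both rose in ZDHHC6 with VTI1A (log2 fold changes 0.90 and 0.81) and in PGM3 with RWDD2A (0.74 and 1.05). ZDHHC6 overlaps VTI1A at its start, and PGM3 overlaps RWDD2A. As the counting strand is not stated, reads from these overlaps cannot be told apart.

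MIF4GD and its divergent transcript MIF4GD-DT both fell and share a match of the CTCF core. MIF4GD, an initiation factor-like protein that acts on histone mRNA, had 1.91, 1.93 and 3.85 CPM with HaloPROTAC3, against 9.45, 11.1 and 11.6 CPM without (log2 fold change -2.13, SE 0.24, edgeR adjusted p = 4.37e-08). MIF4GD-DT had 0.22, 0.54 and 0.62 CPM against 2.31, 2.39 and 2.21 CPM (log2 fold change -2.32, SE 0.48, edgeR adjusted p = 0.000635). The groups were apart for both. The whole promoter window of MIF4GD is printed because the start of MIF4GD-DT, 138 bases from that of MIF4GD, lies within it, with the match in capitals.
MIF4GD, chr17:75271243-75271542, minus strand: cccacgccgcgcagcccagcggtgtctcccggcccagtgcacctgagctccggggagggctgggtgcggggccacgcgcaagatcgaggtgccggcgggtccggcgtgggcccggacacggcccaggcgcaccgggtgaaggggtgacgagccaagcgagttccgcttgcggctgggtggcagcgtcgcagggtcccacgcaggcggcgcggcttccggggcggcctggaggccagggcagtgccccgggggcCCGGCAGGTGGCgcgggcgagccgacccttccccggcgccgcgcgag

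Genes called higher lay next to each other somewhat more often than tested genes in general. The nearest tested gene was also called higher for 43 of 592 genes called higher (7.26%), against 4.28% of all tested. The nearest tested gene was called lower for 16 of 449 genes called lower (3.56%), against 3.69%. Within 100 kb, 13.0% of genes called higher had another gene called higher, against 9.28% of all tested. For genes called lower, 10.0% had another gene called lower within 100 kb, against 7.54%. Within 500 kb the shares were 36.5% for genes called higher against 33.9% for all tested, and 27.4% for genes called lower against 27.4%. These shares describe neighbours, with overlapping genes kept in, and were not tested. As the counting strand is not stated, reads of overlapping neighbours on opposite strands cannot be told apart.

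Imprinted genes, expressed from 1 parental copy, moved in both directions. Of 26 tested, 5 rose and 3 fell, where 10.1% and 7.28% of all genes tested rose and fell. The list's median log2 fold change was 0.05. PEG10 and SGCE are paternally expressed neighbours on chromosome 7 that start 247 bases apart on opposite strands. They overlap at their starts, and as the counting strand is not stated, reads from this overlap cannot be told apart. PEG10 had 47.3, 54.7 and 49.1 CPM with HaloPROTAC3, against 28.1, 25.0 and 29.7 CPM without. SGCE had 4.72, 5.27 and 5.23 CPM against 12.6, 11.5 and 13.7 CPM. PEG10 rose by 0.87 and SGCE had a log2 fold change of -1.30 (SE 0.11 and 0.18, edgeR adjusted p = 4.35e-07 and 1.76e-06). The paternally expressed MEST had 28.2, 24.6 and 25.1 CPM against 53.1, 54.2 and 47.6 CPM (log2 fold change -0.99, SE 0.11, edgeR adjusted p = 2.86e-08), and PLAGL1, a zinc finger regulator, rose by 0.69.

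Clustered protocadherins, whose promoter choice in neurons depends on CTCF, were largely silent. Of 53 genes 2 passed the count filter, and 32 had no count in the 6 libraries. PCDHGA10 had 1.69, 2.15 and 2.0 CPM with HaloPROTAC3, against 7.98, 7.01 and 7.43 CPM without (log2 fold change -1.93, SE 0.25, edgeR adjusted p = 9.34e-07). Genes of this cluster share their last exons, so its value is uncertain. HOX genes pattern the body axis and sit in clusters divided by CTCF sites. Of 22 tested, 0 rose and 1 fell, where 10.1% and 7.28% of all genes tested rose and fell. Without control replicate 3, 3 HOX genes rose. HOXB8 had 28.5 ± 4.19 against 44.6 ± 2.81 CPM (SD, n = 3 each; log2 fold change -0.65, edgeR adjusted p = 3.50e-05).

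Of 25 cholesterol synthesis genes tested 12 rose, 0 fell and 13 did not pass, where 10.1% of all genes tested rose, and the list's median log2 fold change was 0.26. SC5D, an enzyme of the late sterol pathway, had 81.9, 81.9 and 71.9 CPM with HaloPROTAC3, against 51.7, 48.9 and 46.6 CPM without (log2 fold change 0.68, SE 0.09, edgeR adjusted p = 6.66e-07). LSS, which makes lanosterol, had 43.9 ± 2.28 against 27.1 ± 5.27 CPM (SD, n = 3 each; log2 fold change 0.68, edgeR adjusted p = 6.21e-05). SQLE, which starts the step to lanosterol, rose by 0.61. The groups were apart in all 3.

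Of 15 fatty acid synthesis genes 6 rose, 0 fell and 9 did not pass, where 10.1% of all genes tested rose, with a median log2 fold change of 0.27. FADS2 led this list, and ACACA, the first committed enzyme, had 241.8, 310.0 and 288.2 CPM with HaloPROTAC3, against 184.0, 176.7 and 190.7 CPM without (log2 fold change 0.61, SE 0.08, edgeR adjusted p = 2.44e-06). SCD, the desaturase of saturated fatty acids, had 965.9, 1013 and 961 CPM against 731.7, 722.1 and 737.1 CPM (log2 fold change 0.42, SE 0.06, edgeR adjusted p = 1.09e-05). With library totals in place of scaling factors 3 of the 15 rose and 1 fell.

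Of 24 heat shock and unfolded protein response genes 8 rose, 3 fell and 13 did not pass, where 10.1% and 7.28% of all genes tested rose and fell (median log2 fold change 0.11). The 8 that rose act in the ER or its stress response, and HERPUD1, EDEM1 and SDF2L1, which also do, did not pass. DNAJB9, an ER co-chaperone, had 29.4, 33.0 and 30.2 CPM with HaloPROTAC3, against 13.0, 12.7 and 11.2 CPM without (log2 fold change 1.33, SE 0.13, edgeR adjusted p = 6.47e-09). The co-chaperone DNAJC3 rose by 0.72, CRELD2 by 0.68 and the disulfide isomerase PDIA4 by 0.58. The fallers were HSPA1B, HSPH1 and HSPE1, with log2 fold changes of -0.34, -0.20 and -0.27. They are outside the naming rule and were named after their values were seen. Only 1 of them passed without control replicate 1 or without any of the 3 HaloPROTAC3 replicates.

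Of 26 genes of the integrated stress response and amino acid supply 7 fell, 1 rose and 18 did not pass, with a median log2 fold change of -0.11, where 7.28% of all genes tested fell. MTHFD2, a mitochondrial folate enzyme, had 259.0, 250.4 and 262.7 CPM with HaloPROTAC3, against 470.6, 464.0 and 427.6 CPM without (log2 fold change -0.82, SE 0.07, edgeR adjusted p = 1.31e-10). SLC7A5 and SLC3A2, the 2 chains of an amino acid transporter, had log2 fold changes of -0.66 and -0.52, and the serine synthesis enzyme gene PSAT1 had -0.53. Without control replicate 2, 4 genes of the list fell.

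Of 37 DNA replication and S phase genes 8 fell and 0 rose, where 7.28% of all genes tested fell, and the median log2 fold change was -0.14. RFC4, a clamp loader subunit, had 56.2, 54.0 and 48.8 CPM with HaloPROTAC3, against 85.9, 72.3 and 68.7 CPM without (log2 fold change -0.51, SE 0.09, edgeR adjusted p = 1.00e-04), and the primase subunit gene PRIM1 had 33.3 ± 1.61 against 46.4 ± 5.70 CPM (SD, n = 3 each; log2 fold change -0.49, edgeR adjusted p = 0.00131). Without HaloPROTAC3 replicate 2 or 3 or control replicate 2, 3 of the 37 fell, a share near that of all genes. G2/M genes split, with 4 up and 4 down of 29, where 10.1% and 7.28% of all genes tested rose and fell. CCNA2 and CDK1, a cyclin and its kinase, had log2 fold changes of -0.38 and -0.35, and CENPF and MKI67, large proteins of mitotic chromosomes, had 0.42 and 0.41. Without control replicate 3 or HaloPROTAC3 replicate 2, 2 of the 29 fell.

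Long and short genes moved apart, which bears on the lists of large chromatin proteins. With genes split into 5 classes by summed exon length, 6.82% of the longest class were called higher and 2.52% lower, against 3.19% and 4.42% of the shortest class. The median level of the longest minus the shortest class was 0.01, 0.18 and 0.07 on the log2 scale in the 3 HaloPROTAC3 libraries, and 0.01, -0.07 and -0.07 in the 3 controls. With this trend removed 567 genes were called higher and 449 lower, of which 525 and 402 were also called in the main fit. The part of this trend in any single result was not tested beyond that fit.

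Of 36 polycomb and histone H3 modifier genes 6 rose and 1 fell (median log2 fold change 0.09), where 10.1% of all genes tested rose and 7.28% fell, and with the length trend removed also 6 and 1. The 1 that fell was PHC2, and no member fell in 5 of the 6 fits that left out a library, the exception being that without control replicate 1. KDM6A, an H3K27 demethylase, had 53.4, 59.3 and 53.6 CPM with HaloPROTAC3, against 30.9, 27.2 and 33.3 CPM without (log2 fold change 0.87, SE 0.10, edgeR adjusted p = 9.27e-08), and KDM5B, an H3K4 demethylase, rose by 0.58. Of 18 DNA methylation genes 6 rose and 0 fell, against the same 10.1% of all genes that rose, and 5 rose with the length trend removed. ZBTB33, which binds methylated DNA, had 78.6 ± 3.18 against 49.5 ± 5.66 CPM (SD, n = 3 each; log2 fold change 0.67, edgeR adjusted p = 1.42e-06), and the methylcytosine oxidases TET3 and TET2 rose by 0.55 and 0.44.

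Of 41 nuclear speckle and splicing genes 3 rose, a share below the 10.1% of all genes tested, and 1 fell, where 1 rose and 2 fell with the length trend removed. Without control replicate 2, or HaloPROTAC3 replicate 2 or 3, 1 of them rose. No member fell without HaloPROTAC3 replicate 1 or 2 or control replicate 2, and 2 fell without control replicate 3. SRRM2, a speckle scaffold protein, had 1033, 1281 and 1163 CPM with HaloPROTAC3, against 882.3, 830.8 and 937.9 CPM without (log2 fold change 0.39, SE 0.08, edgeR adjusted p = 0.000347). SON, the other speckle scaffold, had 519.1, 609.9 and 551.1 CPM against 519.4, 476.9 and 452.1 CPM, so that the groups overlapped by 1 library each (log2 fold change 0.21, edgeR adjusted p = 0.0339). SON did not pass with the length trend removed (adjusted p = 0.175) or without HaloPROTAC3 replicate 2 (0.232), HaloPROTAC3 replicate 3 (0.0733), control replicate 2 (0.112) or control replicate 3 (0.15).

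Targets of β-catenin, which is constitutively active in HCT116 cells, moved both ways, with 2 up and 4 down of 15. Without HaloPROTAC3 replicate 2 or 3 or control replicate 2, 1 was up. For this list and the next, the shares of all genes tested were 10.1% up and 7.28% down. DKK1, a secreted Wnt inhibitor, had 154.8, 141.8 and 144.7 CPM with HaloPROTAC3, against 338.1, 296.2 and 288.5 CPM without (log2 fold change -1.06, SE 0.07, edgeR adjusted p = 2.54e-12). SOX9, a crypt transcription factor, had a log2 fold change of -0.41, and BMP4, a secreted morphogen, of 0.58. Of 17 TGF-β, BMP and YAP target genes 2 rose and 3 fell, and 1 rose with DESeq2 or without any of the 3 HaloPROTAC3 replicates or control replicate 3. TGFB1, the ligand, had 26.7, 24.5 and 27.2 CPM against 50.4, 55.9 and 62.8 CPM (log2 fold change -1.11, SE 0.10, edgeR adjusted p = 7.51e-10). TGFB1 was the only gene of this list that fell without control replicate 2 or 3 or without HaloPROTAC3 replicate 2 or 3.

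Of 17 epithelial genes tested 6 rose and 1 fell, with 2 rising without control replicate 1. For this list and those that follow here, 10.1% of all genes tested rose and 7.28% fell. ESRP1, an epithelial splicing regulator, had 205.1 ± 1.32 against 150.7 ± 7.83 CPM, and E-cadherin (CDH1) had 102.6 ± 1.65 against 73.2 ± 8.66 CPM (SD, n = 3 each; log2 fold changes 0.45 and 0.49). The tight junction gene CLDN7 had a log2 fold change of -0.39. Of 31 hypoxia and glycolysis genes 5 rose and 2 fell, and 3 rose without HaloPROTAC3 replicate 1 or 3. The peptide hormone gene ADM rose by 0.98 and the collagen hydroxylase gene P4HA1 by 0.68, while the glucose transporter gene SLC2A1 had a log2 fold change of -0.28. Of 31 p53 target genes 5 rose and 1 fell, and 2 rose without control replicate 2 and 3 without control replicate 3 or HaloPROTAC3 replicate 1 or 2. The cell death genes BBC3 and PMAIP1 moved apart, with log2 fold changes of 0.86 and -0.43.

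Of 33 immediate-early genes 3 rose and 5 fell, with 3 falling without control replicate 2 and 8 without control replicate 1. Beside the counts in this paragraph stand 10.1% of all genes tested that rose and 7.28% that fell. DUSP6, which dampens ERK signalling, rose by 0.49 and NR4A2 by 0.72, while FOSL1 and KLF10 had log2 fold changes of -0.40 and -0.42. Of 25 interferon-stimulated genes 3 rose and 1 fell, IFIT1 rising by 0.88 and IFITM2 falling by 0.72 on the log2 scale. Of 23 BCL2 family and caspase genes 2 rose and 3 fell, with 0 rising without control replicate 3 and 1 without control replicate 2 or HaloPROTAC3 replicate 2 or 3. Of 13 NF-κB target genes 1 rose, NFKB2, by 0.38.

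Of 21 snoRNA host and nuclear noncoding RNAs 2 rose and 3 fell. Without control replicate 2 or HaloPROTAC3 replicate 2 or 3, 1 fell. The shares of all genes tested, for each list in this paragraph, were 10.1% that rose and 7.28% that fell. The nuclear RNAs MALAT1 and NEAT1 rose by 0.62 and 0.43. Of 13 mitochondrially encoded mRNAs 3 rose, with 0 to 8 rising without 1 library: 0 without HaloPROTAC3 replicate 1, 8 without replicate 2 and 1 without replicate 3, and 5, 1 and 1 without control replicates 1, 2 and 3. Of 77 ribosomal protein genes 1 rose and 3 fell, with 0 rising in any of the 6 fits that left out a library and 1 falling without HaloPROTAC3 replicate 1 or 3 or control replicate 2. Of 30 MYC and ribosome biogenesis genes 1 rose, and 0 without HaloPROTAC3 replicate 2 or 3 or control replicate 2. Of 14 antigen presentation genes 1 fell, TAP1, which did not pass without HaloPROTAC3 replicate 3. Of 10 fibroblast genes 3 rose, with 0 rising without control replicate 2 or without HaloPROTAC3 replicate 1. Of 6 neuronal genes tested 1 fell, ENO2, which is also on the glycolysis list. Among 2 blood, 9 germline and 13 histone genes tested none passed in the edgeR fit.

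**Figure D4:**
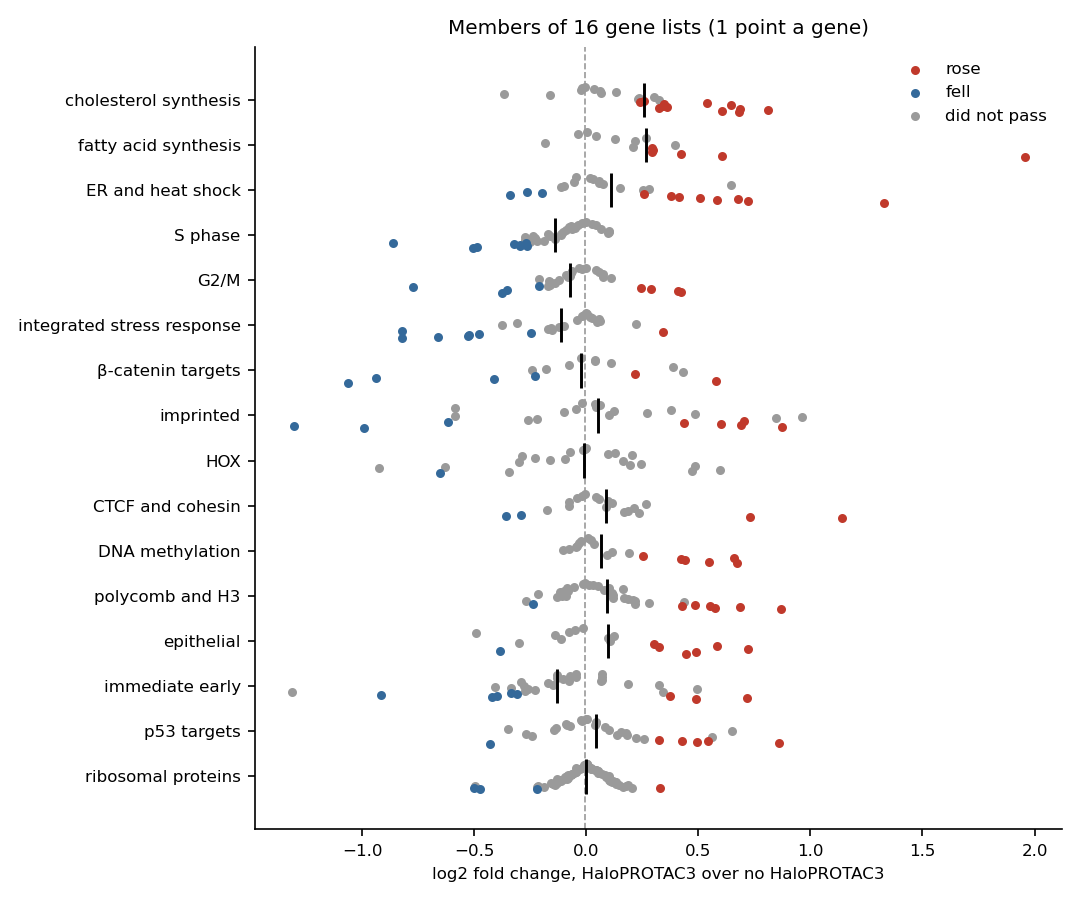
Log2 fold change with HaloPROTAC3 over no HaloPROTAC3 in DMSO for the tested members of 16 gene lists, with 1 point per gene, colour by test result, a black bar at the list's median and a dashed line at the median of all genes. CTCFL, at 1 count, is left out of the points. Cholesterol synthesis has 12 members that rose and S phase 8 that fell.

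Most genes called in DMSO changed with the same sign in DNMT1i, in libraries that share none of the 6 above. Those libraries entered the same fit and its estimate of spread. There HaloPROTAC3 raised 670 genes and lowered 648, which is 5.28% and 5.11% of those tested (10.4% in either direction). Of the 592 genes called higher in DMSO, 557 had the same sign in DNMT1i and 357 were called higher there, which is 60.3% of the DMSO list and 53.3% of the DNMT1i list. Of the 449 called lower, 431 had the same sign and 266 were called lower, or 59.2% and 41.0% of the 2 lists. In the opposite direction 2 of the 592 and 0 of the 449 were called. CTCF and STAG1 rose there by 0.67 and 1.2 on the log2 scale, TMC7 and NKD2 had log2 fold changes of -3.25 and -5.11, and 12 of 25 cholesterol synthesis genes rose and 0 fell. Not every list repeated. Of 18 DNA methylation genes 1 rose and 2 fell in DNMT1i, and of 36 polycomb and histone H3 modifier genes 4 rose and 8 fell. By adjusted p alone, as in these list counts, 12.2% of all genes tested rose in DNMT1i and 10.1% fell. Of 15 fatty acid synthesis genes 5 rose and 1 fell, with a median log2 fold change of 0.08. The interaction of HaloPROTAC3 and DNMT1i passed for 34 genes (0.268% of those tested), of which 10 were among the 592 called higher in DMSO and 0 among the 449 called lower. The interaction subtracts the DMSO change by which those lists were chosen, so this split is not independent of them. The count of interaction genes was 141 with DESeq2 and between 0 and 238 when 1 library was left out. It was 0 without HaloPROTAC3 replicate 3 or control replicate 2 in DMSO or control replicate 2 in DNMT1i, and 238 without control replicate 3 in DMSO.

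**Figure D5:**
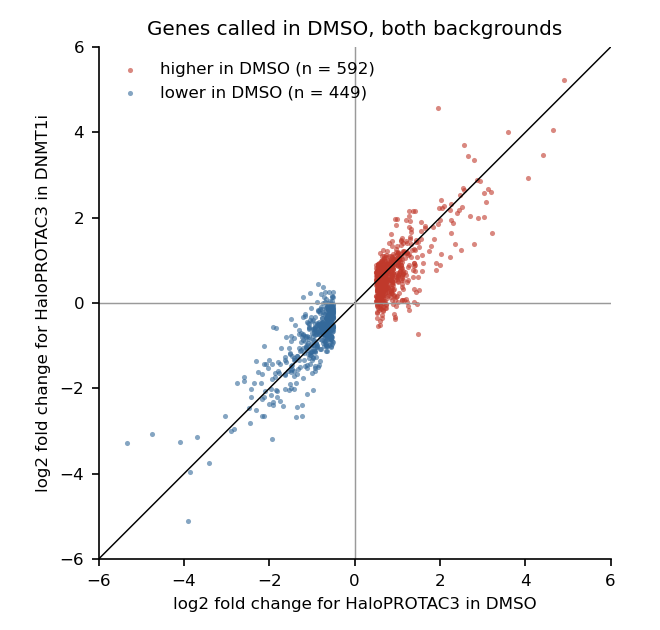
Log2 fold change for HaloPROTAC3 in DNMT1i (y axis) against that in DMSO (x axis) for the genes called in DMSO, with 1 point per gene and a line of equality. Of 592 genes called higher 557 lie above 0 on the y axis, and of 449 called lower 431 lie below it.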

How the data were processed

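Poly(A) RNA-seq libraries with unique molecular identifiers were made by the study from separate cultures. The authors deposited a table of raw counts per gene for each library. The submitters' processing notes list UMI-tools 1.1.1, cutadapt 2.7, STAR 2.6.0, HTSeq and hg38, and no source used here states the counting strand. Reads not assigned to a gene, 17.1% to 21.4% of each table, were left out. Tables of the authors' own comparisons hold fold changes and p-values and were not used. Of 60664 identifiers 99.7% matched GENCODE 44, the source of gene coordinates.

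The 12 HaloTag-CTCF libraries were fitted in 4 groups with edgeR 4.0.16 (TMM scaling, filterByExpr, quasi-likelihood F test, Benjamini-Hochberg adjustment) in R 4.3.3. Calls needed a log2 fold change above 0.5 or below -0.5 besides an adjusted p under 0.05. Genes and lists used an adjusted p below 0.05 alone. CPM values use effective library sizes, and intervals of p cover the spread between these cultures only. The fit was tested on simulated data. Alternatives were DESeq2 1.42.0, other scalings, no filter, the 6 DMSO libraries alone, a replicate block and leaving out each library. Thinning, unscaled totals and a length trend correction were added after the data were seen.

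Named genes were the 12 largest changes each way and the 6 smallest p each way among genes past the threshold that have a symbol, average 1 or more in log2 CPM over 6 libraries and keep the groups apart, up to 4 members per list by p, the 8 smallest interaction p, and a fixed set (CTCF, cohesin, MYC, DNMT1, VHL, SON, SRRM2). The comparison, the genes and the lists were chosen with earlier results of these data known.
Some named genes are not reported here.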

Additional observations from a re-analysis of the deposited data

Results flagged for a closer look

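The effect of HaloPROTAC3 differed between the DMSO and DNMT1i backgrounds, by the interaction term in edgeR, for 34 genes, 27 with a more negative and 7 with a more positive change in DNMT1i. At an unadjusted p below 0.05 there were 1788 genes, and DESeq2 called 141. Leaving out 1 library gave 0 genes without DMSO control replicate 2, without HaloPROTAC3 replicate 3 in DMSO or without DNMT1i control replicate 2, 1 without DNMT1i control replicate 1 and 238 without DMSO control replicate 3. It was 97 without HaloPROTAC3 replicate 1 in DMSO, 12 without DMSO control replicate 1 and 20 without HaloPROTAC3 replicate 2 in DNMT1i.

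MKI67 averaged 1340 CPM with HaloPROTAC3 and 1009 CPM without in DMSO, and 895.3 and 1153 CPM in DNMT1i (interaction -0.77 on the log2 scale, edgeR adjusted p = 0.00957). The interaction was -0.75 for PCNT and -0.76 for SOGA1 (edgeR adjusted p = 0.0154 for both), -1.01 for EHBP1L1 (0.0189) and -0.69 for MALAT1 (0.019). It was -1.21 for MT-ND6 (0.0157), which averaged 174.9 and 219.1 CPM with and without HaloPROTAC3 in DMSO, and 92.0 and 267.2 CPM in DNMT1i.

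RPS13 averaged 348.6 CPM with HaloPROTAC3 and 383.5 CPM without in DMSO, and 461.0 and 339.3 CPM in DNMT1i (interaction 0.58, edgeR adjusted p = 0.0154). For RPS21 and RPS29 the interaction was 0.63 and 0.73. Of the 7 positive genes 5 encode ribosomal proteins, and of 77 ribosomal protein genes 49 rose in DNMT1i, where 12.2% of all genes tested rose. The median summed exon length was 13998 bases for the 27 negative genes and 2115 for the 7 positive ones, against 5303 over all tested, and with the length trend removed 27 genes passed. The part of length in these results was not tested further.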

How the results depend on the processing

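No named gene reversed, and 97 of 125 named genes past the threshold stayed past it in all 16 alternatives. The other 28 lost it in 1 or more, at most 18 in any one, without control replicate 2. DESeq2 called 488 genes higher and 339 lower, and the replicate block 574 and 430. Replicate numbers did not pair the DMSO samples (correlations of deviations -0.29, -0.39 and 0.37). Without a fold limit the counts were 1276 and 924, and with a limit of 1 they were 172 and 152. Leaving out 1 library gave 532 to 626 higher and 382 to 425 lower. Thinned to the smallest library there were 532 and 380.

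In DNMT1i, 1033 genes were lower with unscaled totals. The interaction count of 34 became 141 with DESeq2, 165 without filtering, 61 with unscaled totals and 0 to 238 without 1 library. S phase genes that fell numbered 4 without filtering, 16 with unscaled totals and 3 to 8 without 1 library, those of the integrated stress response 4 to 6, and fatty acid genes that rose 3 with unscaled totals. The share of promoters of lower genes with the CTCF core over that of all tested was 1.73, and 1.19 with the shorter letters. For neighbours of genes called higher the ratio was 1.70, and 1.08 within 500 kb. Depth limits genes near 3 counts a library, or 0.322 to 0.63 CPM in the DMSO libraries. The cause of these changes was not tested.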
